A study of Homo sapiens with 3 samples.

Results

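The genes described here encode interleukins, chemokines, ligands and receptors of the TNF superfamily, and interferons with their receptors. They were chosen by name alone: a protein-coding gene of the deposited table was taken if its symbol was IL followed by a digit, or began with CXCL, with CCL and a digit, with TNFSF, with TNFRSF or with IFN. This gave 44 of the 12220 protein-coding genes and of the 17201 genes of any class that the table holds. The values come from PAR-CLIP of CTCF, the zinc-finger protein that binds DNA and shapes chromatin loops, in U2OS, an established human osteosarcoma line grown under standard conditions. In this assay cells take up a thiouridine label (here 400 µM for 16 to 24 h), ultraviolet light at 365 nm links the labelled RNA to proteins that touch it, and the RNA that comes down with the precipitated protein is sequenced. There is 1 condition and 1 table, made from the merged sequencing data of 2 biological replicates, which were precipitated with separate lots of an anti-CTCF antibody. Per-replicate values, a control precipitation and RNA abundance were not analysed here, so a count describes RNA recovered with CTCF and is not an enrichment, and no value below has a replicate error.

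Cytokines are small secreted or membrane-bound proteins by which cells, above all those of the immune system, signal to each other. Interleukins and interferons mostly act through receptors that pair with Janus kinases and STAT factors, TNF-type ligands and IL-1 act through adaptors that lead to NF-κB, and chemokines act on G protein-coupled receptors that steer cell movement. Most cytokine genes are short and are switched on only in stimulated or specialised cells, whereas many of their receptors are present in connective tissue and tumour cells at rest. Osteosarcoma cells are of mesenchymal origin, and IL-6, IL-11 and RANK ligand (TNFSF11) signalling are known for their part in bone turnover.

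The promoters of 2 genes are shown as single examples, a choice made after the counts were seen. The genes are IL6ST, the receptor gene with the highest count of the set, and CXCL8, a chemokine gene that was not listed. These 2 promoters do not describe receptor and ligand genes as classes. Both run 5′ to 3′ on the gene's strand from 250 bases before to 50 bases after the start given by RefSeq in GRCh38.p14, a build that differs from that of the counts. Capitals mark matches to a TATA box (TATAAA) or to a κB-type motif (GGNNTTNCC), searched on both strands.

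IL6ST, chr5:55994914-55995213, minus strand: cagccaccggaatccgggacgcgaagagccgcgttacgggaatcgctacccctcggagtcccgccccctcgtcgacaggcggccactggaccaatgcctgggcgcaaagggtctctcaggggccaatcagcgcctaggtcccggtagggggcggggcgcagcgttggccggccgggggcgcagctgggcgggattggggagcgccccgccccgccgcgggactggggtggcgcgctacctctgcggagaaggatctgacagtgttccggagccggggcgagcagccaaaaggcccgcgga

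CXCL8, chr4:73740319-73740618, plus strand: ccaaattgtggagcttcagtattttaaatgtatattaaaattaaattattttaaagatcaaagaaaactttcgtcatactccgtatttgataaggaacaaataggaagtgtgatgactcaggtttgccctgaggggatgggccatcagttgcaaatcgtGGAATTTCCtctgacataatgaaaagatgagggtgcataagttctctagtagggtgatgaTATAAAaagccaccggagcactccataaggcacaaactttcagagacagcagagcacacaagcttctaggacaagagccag

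The IL6ST window had a GC content of 72.7% and 36 CpG dinucleotides, with no match (0) to either motif. The CXCL8 window had a GC content of 39.3% and 4 CpG, with 1 TATA box whose first base lay at position -31 from the start and 1 κB-type match at -91, and these did not overlap. Over the 15292 annotated protein-coding genes with a promoter in the reference table, the median was 63% GC with 22 CpG, TATAAA was found in 9.63% and the κB-type motif in 18.01%. A match of letters is a description and not a binding site. The same comparison over the whole set was void, because only 140 of its 183 annotated genes (76.5%) had a promoter in the table, under the 80% set as the minimum.

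Across the set, counts were low. The 44 genes had a median of 24 counts with quartiles of 10 and 41.75, against a median of 43 with quartiles of 17 and 104 for all listed protein-coding genes, although the median interval was of similar length (31.1 kb and 30.1 kb). Per kb of interval the medians were 0.677 and 1.54 counts. Together they held 1529 counts, or 0.134% of the protein-coding sum, while being 0.360% of the listed protein-coding genes. Only IL6ST, IL18 and IL1RAPL1 (3 genes, 6.82%, 95% Clopper-Pearson interval 1.43 to 18.7%) had 100 counts or more, a level reached by 26.1% of listed protein-coding genes. The table starts at 6 counts, and 12 of the 44 had 10 counts or fewer, which is 27.3% against 13.04% of listed protein-coding genes.

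**Figure D1:**
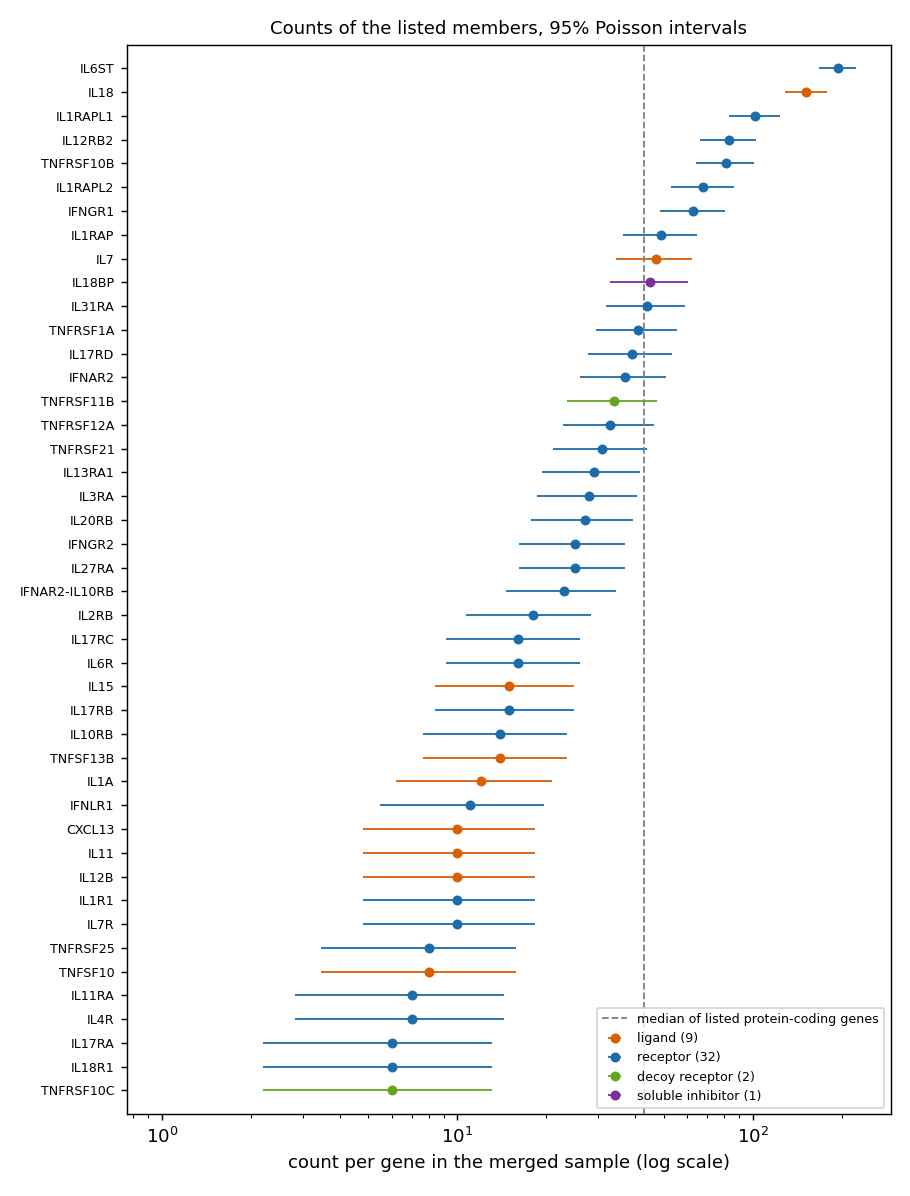
Count of each of the 44 listed genes in the merged sample (horizontal log axis), coloured by role, with exact 95% Poisson intervals as bars and the protein-coding median of 43 as a dashed line. IL6ST with 194 and IL18 with 152 lie highest, and most receptors and all ligands except IL18 and IL7 lie to the left of the line.

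Counts rose with the length of the gene, so each gene was also placed among the listed protein-coding genes of similar interval length, divided into 50 groups. Of the 44, 7 lay above the median of their length group (15.9%, 6.64 to 30.1%), where 49.4% of all listed protein-coding genes did. The 7 were IL6ST, IL18, TNFRSF10B, IFNGR1, IL18BP, TNFRSF1A and TNFRSF12A. At the other end 20 genes (45.5%) were below the 25th percentile of their group, compared with 25.02% of all. The median percentile was 25.8. Spearman's rho between count and length was 0.300 over the 44 genes and 0.434 over the 12220, which share 1 sample and are not independent replicates.

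**Figure D2:**
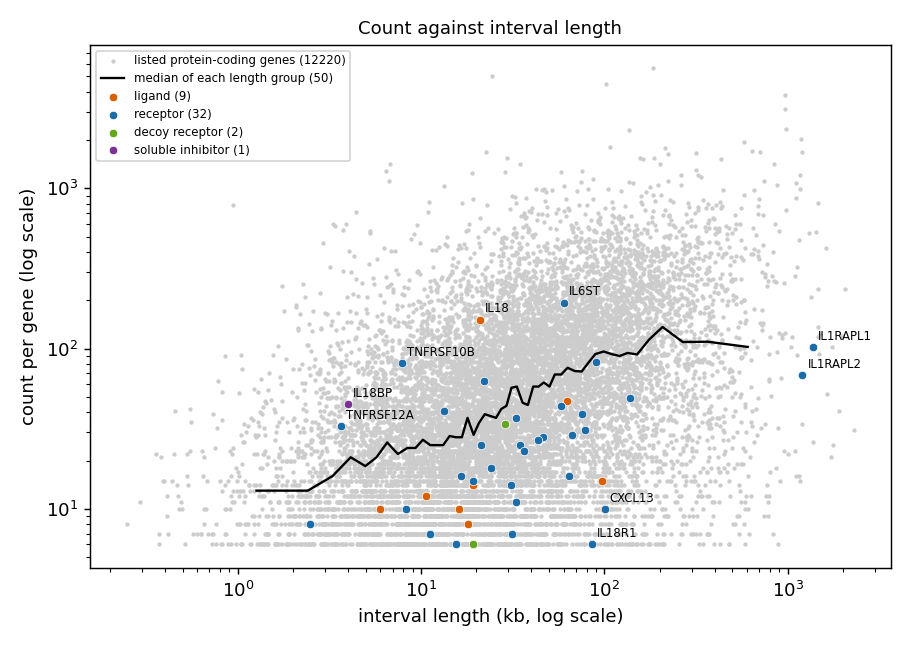
Count against interval length, both on log axes, for listed protein-coding genes (grey) and for the 44 genes by role (coloured), with the median of each of 50 length groups as a line. Of the coloured points 7 lie above the line, and IL1RAPL1 and IL1RAPL2 lie far to the right of the rest at 102 and 68 counts.

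Receptors and ligands differed mainly in how many were listed. RefSeq holds 183 protein-coding genes that meet the naming rule and pair with exactly 1 Ensembl identifier, and 43 of them were listed (23.5%, 17.6 to 30.3%), compared with 60.6% of all 19124 such protein-coding genes. The remaining listed gene, IL3RA, pairs with more than 1 identifier. Of 59 receptor genes 31 were listed (52.5%, 39.1 to 65.7%), and of 113 ligand genes 9 (7.96%, 3.71 to 14.6%). Ligand genes are short, with a median RefSeq span of 4.90 kb against 39.9 kb for receptors, and short genes are listed less often in general. In a comparison added after seeing the data, each gene was given the listed share of all annotated protein-coding genes of its span, in 50 groups. These shares averaged 39.0% for the ligands and 66.5% for the receptors, so the listed share was below that of genes of similar span by a wider margin for ligands. A gene that is not listed had fewer counts than the floor of the table, was not among the features counted, or stands in the table under an identifier that the name table does not hold. The third case touches the CCL genes. Of all annotated protein-coding genes, 383 have an Ensembl identifier above the highest in the table, and 0 of these were listed. Among them are 9 CCL genes of a cluster on chromosome 17 that begins with CCL5. All 33 listed protein-coding genes in chr17:34058668-36981734, between AP2B1 and RPL23, had no symbol, with counts from 6 to 524, so CCL5 and these 9 genes could not be assessed. Without these 10 genes, 43 of 173 annotated genes were listed (24.9%, with 50.7% for genes of similar span) and 9 of 103 ligands (8.74%, with 40.5%).

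**Figure D3:**
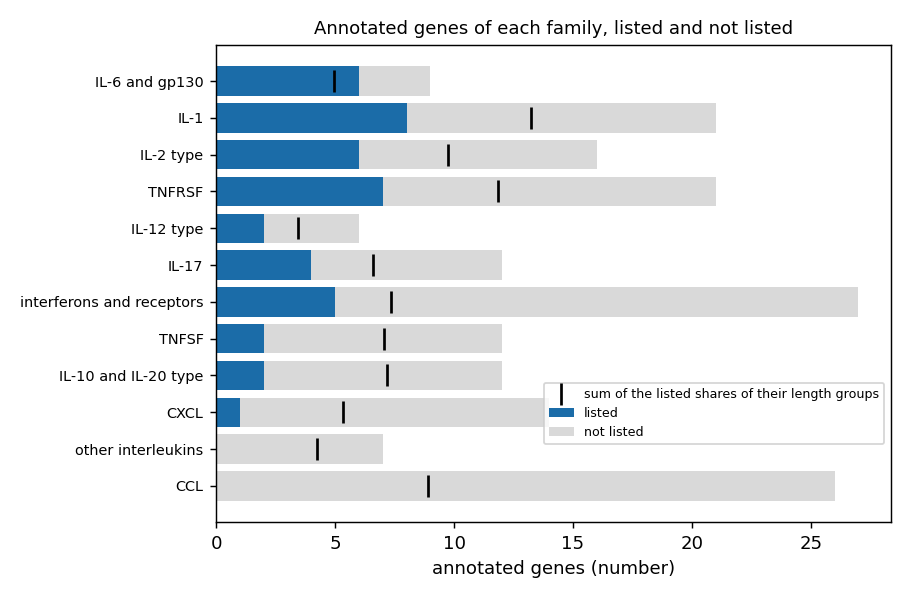
Annotated genes of each family (horizontal bars, number of genes), divided into listed (blue) and not listed (grey). The black tick gives the number that the listed shares of genes of similar span add up to, and the IL-6 family, with 6 of 9 listed against a tick at 4.97, is the only family whose blue bar passes its tick. Of the 26 CCL genes drawn as not listed, 10 could not be assessed.

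The receptors of the IL-6 family were the most completely listed group. All 5 annotated receptor genes were there, where genes of similar span would give 3.39, and 1 of 4 ligands, where they would give 1.58. Both counts are close to those of genes of similar span (exact intervals 47.8 to 100% for receptors and 0.631 to 80.6% for ligands). IL6ST encodes gp130, the signalling chain shared by the receptors of IL-6, IL-11, LIF and oncostatin M, and it had 194 counts (95% Poisson interval 168 to 223) at chr5:55230923-55290821 in hg19, the build of all count intervals here. That is 3.24 counts per kb and percentile 87.9 of its length group. An antisense gene of 89 counts lies inside the IL6ST interval, over 9.32% of it, and reads there may enter both counts. A processed copy on chromosome 17, the pseudogene IL6STP1, had 28 counts over 1.02 kb, and reads that fit both places cannot be told apart here.

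The ligand-specific chains of that family were far lower than the shared one. IL31RA, the gp130-like receptor of IL-31, is the neighbour of IL6ST at a distance of 25.9 kb and had 44 counts (32.0 to 59.1), or 0.762 per kb. IL27RA, for a chain of the IL-27 receptor, had 25, and IL6R, the IL-6 binding chain, had 16 over 64.3 kb (0.249 per kb, percentile 13.7). IL11RA, the IL-11 binding chain, had 7 counts and shares 57.4% of its interval with a protein-coding gene of 21. Per kb the Poisson interval of IL6ST (2.80 to 3.73) lay above those of IL31RA (0.553 to 1.02), IL27RA (0.764 to 1.74), IL6R (0.142 to 0.404) and IL11RA (0.252 to 1.29). IL11, the only listed ligand of the family and a cytokine of bone and stromal cells, had 10 counts (4.80 to 18.4) over 5.99 kb. IL6 itself, IL27 and IL31 were not listed.

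In the IL-1 family the ligand IL18 stood out. IL18, an inflammasome-processed cytokine, had 152 counts (129 to 178) over chr11:112013974-112034840, 7.28 per kb and percentile 92.2 of its length group. This was the highest ligand of the set, and the next, IL7, had 47. The IL18 interval lies wholly (100%) inside that of a protein-coding gene without a symbol here, which had 192 counts, so it cannot be told which of the 2 genes the reads came from. IL18BP, the soluble inhibitor of IL-18, had 45 counts (32.8 to 60.2) over the 3.99 kb of chr11:71709587-71713573, at percentile 78.0. It had 11.3 counts per kb of its interval, which covers 42.9% of the RefSeq span of the gene, and 4.84 per kb of that span. No listed gene overlaps it. IL18R1, the IL-18 binding receptor, had only 6 counts over 85.4 kb, percentile 1.23. Its interval is 199% of the RefSeq span of the gene, and the percentile refers to genes with intervals as long as this one.

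IL1RAPL1 and IL1RAPL2, X-linked relatives of the IL-1 receptor known from neuronal synapses, are among the longest human genes. They had 102 counts (83.2 to 124) over 1369 kb and 68 (52.8 to 86.2) over 1201 kb. These totals ranked the third and the sixth of the 44, but per kb they were 0.0745 and 0.0566, the latter the lowest of the set. Against other very long genes they lay at percentiles 49.2 and 40.3. A pseudogene of 31 counts, KCTD9P2, lies inside the IL1RAPL2 interval, over 0.116% of it, and reads there may enter both counts. IL1RAP, the co-receptor shared by IL-1, IL-33 and IL-36, had 49 counts over 137 kb (percentile 29.0), and IL1R1, the receptor of IL-1 itself, had 10 over 100.4 kb (percentile 5.74). The ligand IL1A had 12 counts (6.20 to 20.96). IL1B, IL33, all IL-36 ligands and the inhibitor IL1RN were not listed.

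Receptors of the IL-2 and IL-4 type were listed at low counts. IL13RA1, a chain of the IL-13 and type II IL-4 receptors, had 29 counts, and IL2RB, the shared beta chain of the IL-2 and IL-15 receptors, had 18. IL7R, the IL-7 receptor, had 10 over an interval that covers 36.3% of its RefSeq span. IL4R, the IL-4 binding chain, had 7 over 31.4 kb, percentile 3.07. The common gamma chain IL2RG was not listed, nor were IL2RA, IL15RA and IL21R. Of the ligands, IL7 had 47 counts (34.5 to 62.5), but 70.1% of its interval is shared with ZC2HC1A, a neighbouring gene of 37 counts. IL15 had 15 over 96.8 kb (percentile 11.9). IL3RA, which binds IL-3 and lies in the region common to both sex chromosomes, had 28 counts.

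The receptors of IL-12, IL-17 and IL-10 type cytokines ranged from 6 to 83 counts. IL12RB2, the signalling chain of the IL-12 receptor, had 83 (66.1 to 103) over 89.5 kb (chr1:67773047-67862583) and lay at percentile 44.4, close to the median of 92.5 for its length. The ligand IL12B had 10 counts, the same number as a lincRNA that covers its whole interval. Among IL-17 receptors, IL17RD had 39, IL17RC 16, IL17RB 15 and IL17RA, the chain that most IL-17 cytokines need, 6 (percentile 1.84). A pseudogene of 18 counts, RPL19P2, lies inside the IL17RD interval, over 0.772% of it, and reads there may enter both counts. Of 6 IL-17 type ligands 0 were listed, where genes of similar span would give 2.70. IL20RB, a chain of the IL-20 and IL-24 receptors, had 27, and IL10RB, shared by IL-10, IL-22 and the lambda interferons, had 14. None (0) of the 6 ligands of that type was listed, where genes of similar span would give 3.09. With 6 genes each, the exact intervals around 0 reach 45.9%, close to the shares of 45.0% and 51.5% for genes of similar span.

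Of 6 annotated interferon receptor genes 5 were listed, where genes of similar span would give 4.33. Of 21 interferon genes 0 were listed: 17 of type I, 3 of type III, and IFNG. These genes are very short, with a median RefSeq span of 1.00 kb, and genes of similar span would give 3.04, or 14.5%, which lies within the exact interval of 0 to 16.1%. Neither count stands apart from genes of similar span. IFNGR1, which binds interferon gamma, had 63 counts (48.4 to 80.6) over chr6:137518621-137540586 and stood at percentile 67.8. Its partner IFNGR2 had 25 (16.2 to 36.9). Per kb IFNGR1 had 2.87 (2.20 to 3.67) and IFNGR2 0.722 (0.467 to 1.07), and these counting intervals did not overlap. IFNLR1, the specific chain for lambda interferons, had 11 over 33.1 kb, percentile 6.17.

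IFNAR2, the high-affinity chain for type I interferons, had 37 counts (26.1 to 51.0), but its partner IFNAR1 was not listed. The gene lies in a receptor cluster on chromosome 21 with IL10RB (14 counts) and IFNGR2 (25), where 4 of 5 annotated genes were listed. The fourth, IFNAR2-IL10RB, is a readthrough gene that joins IFNAR2 and IL10RB. It had 23 counts and shares 48.6% of the IFNAR2 interval and 54.6% of the IL10RB interval, so the 3 counts are not separate measurements.

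Of 21 annotated TNFRSF genes 7 were listed (33.3%, 14.6 to 57.0%), where genes of similar span would give 11.8, or 56.4%. In counts per kb of interval TNFRSF10B and TNFRSF12A ranked 2 and 3 of the set, and TNFRSF25 and TNFRSF1A ranked 6 and 7. TNFRSF10B, the TRAIL death receptor DR5, had 81 counts (64.3 to 101) in chr8:22877646-22885481, or 10.3 per kb, and stood at percentile 89.8. Its interval covers 16.0% of the RefSeq span of the gene, and per kb of that span TNFRSF10B had 1.66 counts. The percentile refers to genes with intervals as short as this one. TNFRSF12A, the receptor of TWEAK, had 33 over 3.64 kb (9.06 per kb, percentile 71.3) and TNFRSF1A, the main TNF receptor of non-immune cells, had 41 over 13.4 kb (3.07 per kb, percentile 67.7). No listed gene overlaps any of these 3. The TNFRSF12A interval is 181% of the RefSeq span of the gene, and per kb of that span TNFRSF12A had 16.4 counts. TNFRSF25, a death receptor of lymphocytes, had 8 counts over 2.47 kb (percentile 20.2), an interval that covers 45.9% of its RefSeq span. TNFRSF21, for death receptor DR6, had 31 over 78.4 kb, below the median of 72 for its length.

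Of 7 annotated decoy receptors, which bind ligand without signalling, 2 were listed, where genes of similar span would give 4.12. TNFRSF11B, osteoprotegerin, which is secreted by osteoblast-lineage cells and captures RANK ligand, had 34 counts (23.5 to 47.5), or 1.19 per kb, and lay at percentile 41.4. TNFRSF10C, a TRAIL decoy beside TNFRSF10B in the same cluster of 4 genes, had 6 counts over 19.2 kb. Per kb of interval, TNFRSF10B (8.21 to 12.9) and TNFRSF10C (0.115 to 0.680) had counting intervals that did not overlap. Their gene intervals are 16.0% and 132% of the RefSeq spans, so these densities rest on unlike lengths. Per kb of RefSeq span the values were closer, 1.66 and 0.413 counts. The other two genes of the cluster, TNFRSF10A (DR4) and TNFRSF10D, were not listed. These genes resemble each other in sequence, and how reads matching several of them were assigned is not known here. The only TNF-type ligands in the table were TNFSF13B, the B-cell factor BAFF, with 14 counts and TNFSF10, which is TRAIL, with 8. These were 2 of 12 annotated (16.7%, 2.09 to 48.4%), where genes of similar span would give 7.04, or 58.7%. RANK ligand, TNFSF11, was not listed.

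Of 40 annotated chemokine genes 1 was found listed, and 10 of the 40 could not be assessed. This was CXCL13, a B-cell attractant, with 10 counts (4.80 to 18.4) over 100.1 kb, percentile 5.74 for its length. Of the 16 CCL genes that could be assessed 0 were listed, where genes of similar span would give 5.93, or 37.1%, and where the exact interval reaches 20.6%. CXCL12, the chemokine of bone marrow stroma, and CXCL8 were among the 13 CXCL genes that were not listed.

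Cytokine genes often lie side by side, and the genes next to them were listed in some clusters and not in others. Neighbours were taken from RefSeq order, and a cluster is a run of at least 4 genes of the set with at most 2 other protein-coding genes between them. Neighbours were not matched for length, and shares for genes of similar span were not computed per cluster. The 16 genes of the type I interferon cluster on chromosome 9, from IFNB1 to IFNE, held 0 listed genes. For all 21 annotated interferon genes, the listed share of genes of similar span was only 14.5%. KLHL9, a ubiquitin ligase adaptor gene inside that cluster, had 43 counts, and MTAP, the methionine-salvage gene that follows it, had 117, while HACD4 on the other side was not listed. The 6 CXCL genes from CXCL8 to CXCL2 on chromosome 4 were not listed, nor were RASSF6 before them and the chemokine genes PF4V1, PF4 and PPBP between them, and the next gene, MTHFD2L, had 86. In the cluster of 6 CCL genes from CCL2 to CCL1 on chromosome 17 0 were listed, ASIC2 before it had 8 counts and TMEM132E after it was not listed. The 4 genes from IL10 to IL24 on chromosome 1 were not listed, with MAPKAPK2 at 224 before them and FCMR not listed after them. In the cluster of IL-1 ligands on chromosome 2 IL1A was the 1 listed gene of 9, while CKAP2L, a mitotic spindle gene before it, had 305 and PSD4 after it 11. The IL-1 receptor cluster on the same chromosome had 2 listed of 6, IL1R1 and IL18R1, between MAP4K4 with 219 and SLC9A4, which was not listed.

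The signalling genes downstream had a larger listed share and a higher median than the cytokine and receptor genes. Of 25 genes of JAK-STAT signalling 18 were listed (72.0%, with 66.8% for genes of similar span), with a median of 70.5 counts, and 10 (55.6%) lay above the median of their length group. SOCS7, 1 of the genes not listed, has an identifier above the highest in the table and could not be assessed. STAT3, the main factor below gp130, had 311 counts, PIAS1, a SUMO ligase that restrains STATs, had 232, JAK1 had 228, and STAT5A was lowest at 9. Of 33 genes between the TNF and IL-1 receptors and NF-κB 25 were listed (75.8%, with 63.8% for genes of similar span), with a median of 39 counts, and 12 (48.0%) lay above the median of their group. CFLAR, a brake on caspase 8, had 158, NFKB1 146, TRAF3 134 and IRAK2 7. Both shares are near the 49.4% of all listed protein-coding genes, and 15.9% of the 44 cytokine and receptor genes lay above it.

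Interferon sensors and interferon targets had smaller listed shares than these signalling genes. Of 18 interferon regulatory factors and sensors 9 were listed with a median of 38, led by the kinase TBK1 (174), the RNA sensor RIGI (71) and IRF2 (53), with IRF9 lowest at 17. Of 28 interferon-stimulated genes 10 were listed (35.7%, with 52.7% for genes of similar span) with a median of 9. Of these 10 genes, 2 (20%) lay above the median of their length group. TRIM22 had 228 counts, the exonuclease gene ISG20 65 and IFIT5 26, and the antiviral gene OAS3 and IFITM2 had 6 each. Of 23 chemokine receptors 1 was listed (4.35%, with 48.2% for genes of similar span), CXCR5, with 22 counts in an interval that overlaps another listed gene.

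Cytokine genes whose symbols fall outside the naming rule gave 20 listed of 44 (45.5%, with 56.7% for genes of similar span) with a median of 20.5. Of these 20 genes, 8 lay above the median of their length group. LEPR, the leptin receptor, had 386 counts in an interval that overlaps 3 other listed genes, LIFR, the partner of gp130 for LIF, had 179, and EDA2R, a TNF receptor relative, had 152. LIF itself had 120 over 6.41 kb, in an interval that overlaps another listed gene. TNF, LTA, CSF2 and CSF3 were not listed.

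**Figure D4:**
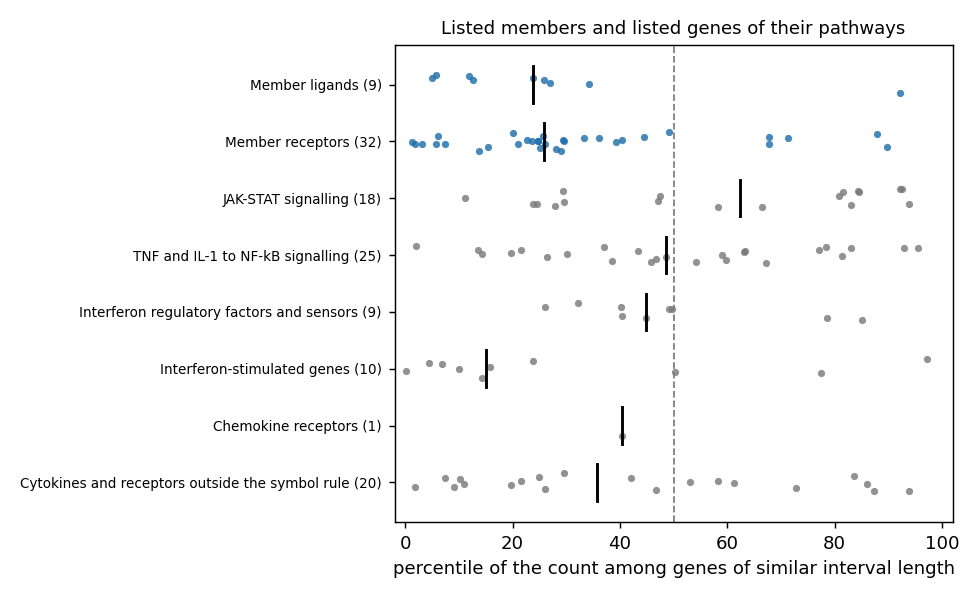
Percentile of each listed gene's count among listed protein-coding genes of similar interval length, for the ligands and receptors of the set (blue) and for genes of their pathways (grey), with medians as black bars and the 50th percentile dashed. The medians are 23.8 for ligands and 25.9 for receptors, against 62.3 for JAK-STAT and 48.6 for NF-κB signalling genes. Interferon regulatory factors and sensors have a median of 44.9 and cytokine genes outside the naming rule 35.8. Interferon-stimulated genes lie lower than the set, at 15.1. The 1 listed chemokine receptor lies at 40.3.

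The labelled cell line was checked against marker genes. Of 18 osteoblast and mesenchymal markers 11 were listed (61.1%, with 59.8% for genes of similar span, so the count itself does not set them apart). Their median was 164 against 43 for all listed protein-coding genes, led by FN1 (1277 counts), CD44 (632) and COL1A1 (602), with ALPL lowest at 8. The markers SP7, BGLAP, IBSP, SPP1, COL1A2, NT5E and TWIST1 were not listed. Of 22 markers of blood and immune cells 2 were listed (9.09%, with 49.9% for genes of similar span), NCAM1 with 245, which is also a neural adhesion gene, and CD3D with 7, while PTPRC and CD14 were not. Of the 44 genes, 12 overlap another listed gene (27.3%, against 34.7% of listed protein-coding genes). Among the 7 above their length-group median, IL6ST and IL18 are such genes.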

How the data were processed

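The deposited values are whole-number counts per Ensembl gene, with interval and biotype, for the merge of both replicates. The submitters' processing notes name hg19 as build, along with Bowtie and bedtools. For these, version and role: not given in the sources used here. Nor do labels or file say which unit was counted, how reads with several matches were treated or whether strand was used. The table holds 17201 genes of at least 6 counts, summing to 1322047, and coordinates are printed as it gives them. Symbols came from a table of Ensembl identifiers, which named 16520 genes and left 681 unnamed, 247 of them protein-coding, so a gene of the set that stands under an identifier without a symbol would be missed. RefSeq (GRCh38.p14) gave synonyms for older symbols, gene spans and the order of neighbours.

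Counts carry exact 95% Poisson intervals and shares exact 95% Clopper-Pearson intervals, which cover counting error only, treat PCR copies as separate molecules and genes as independent draws. With 1 merged sample no test was run and no p-value computed. Length groups are 50 equal groups of listed protein-coding genes by interval, and a percentile counts the other genes of the group, ties as 0.5. The placement was checked on simulated data. Receptors, ligands, decoys and inhibitors were separated by symbol, with IL36RN and IL22RA2 assigned later as an inhibitor and a decoy. The naming rule took genes of 50 counts or more, the highest and lowest of each family, the 5 highest per kb, any that overlap a gene within 10% of their own count and, of each of 8 lists, the 3 highest and the lowest. Others were named after their values were seen, to account for the set. The lowest gene of a list is not reported here in 1 case. The set and the lists were chosen with earlier results of these data known. Python 3.11.15, pandas 2.3.3 and scipy 1.17.1 were used.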

Additional observations from a re-analysis of the deposited data

How the results depend on the processing

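Of 28 alternatives, 22 stayed within 1.5 times the number or ratio reported or within the 95% interval of the reported share or median, 5 moved further and 1 turned a direction. The number of genes at 100 counts or more was 3, and it was 7 at 50 counts or more (45.7% of listed protein-coding genes), 0 at 200 or more (11.6%) and 1, IL1RAPL1, without genes that overlap another listed gene. Without overlapping genes the listed share of annotated genes fell from 23.5% to 16.9% for the set and from 52.5% to 37.3% for receptors, while that of all annotated protein-coding genes fell from 60.6% to 40.8%. The share above the length-group median ranged from 15.9% to 18.9% with other groupings or filters and was 25% without grouping by length. The direction that turned was the ratio of ligand to receptor median, 0.462 in counts and 1.16 per kb, while the median length-group percentile was 23.8 for listed ligands and 25.9 for receptors. The set's median was 0.558 times that of protein-coding genes, and 0.439 times per kb. Symbols from another name table were not run, because RefSeq carried no Ensembl identifiers here, and leaving out a replicate was not run, because the table holds only the merge. Leaving out the 10 genes that could not be looked up, an alternative added after seeing the data, gave 24.9% for the set, 8.74% for ligands and 52.5% for receptors. No paired analysis was possible because there is a single merged table and no second group. Genes at 6 to 10 counts have intervals from 2.20 to 18.4 and their order is not resolved. For 12 of the 44 genes the interval was under 75% of the RefSeq span.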

Other observations

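Some non-coding genes named after genes of the set were also listed. IL12A-AS1, an antisense gene, had 67 counts (95% Poisson interval 51.9 to 85.1) over 294 kb on chromosome 3, although IL12A, for a subunit of IL-12, was not listed. The IL12A-AS1 interval overlaps a pseudogene of 50 counts, and reads in that place enter both counts if strand was not used. IL6STP1, the processed copy of IL6ST, had 28 (18.6 to 40.5) and overlaps no listed gene. IL10RB-DT, a divergent transcript at IL10RB, had 10, and the IL-9 receptor pseudogene IL9RP3 had 8.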
